A study of Mus musculus with 3 samples.

Results

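The RNAs described here were 6 of the 32285 genes in the count tables: Malat1, Neat1, Gm26917, Rmrp, Lars2 and Kcnq1ot1. They were chosen on values measured in these same libraries, namely the share of UMIs that each took in a barcode against the barcode's total UMIs and mitochondrial share, and its level in barcodes that the libraries share. All levels and ratios of the 6 RNAs below are therefore descriptions, and with 1 library per genotype no gene has a statistical test. A UMI (unique molecular identifier) marks 1 captured RNA molecule, and a barcode marks 1 droplet, which usually holds the RNA of 1 cell. The mitochondrial share of a barcode is the percent of its UMIs from the 13 mitochondrial mRNAs. The annotation lists 5 of the 6 as noncoding. The sixth, Lars2, is a protein-coding gene, so the set does not consist of noncoding RNAs alone, and whether any of these RNAs sat in the nucleus was not measured.

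The libraries came from small intestinal organoids, epithelial cells grown in a gel, of C57BL/6 mice. Mice aged 7 to 8 weeks had received 2 doses of 2 mg tamoxifen, the WT controls included. LApc organoids carried Lgr5-CreERT2;Apc fl/fl, in which tamoxifen activates a Cre recombinase expressed from the stem cell gene Lgr5 that deletes Apc, a brake on Wnt signalling, and LApcL organoids carried Lef1 fl/fl alleles in addition to these, so that the Wnt transcription factor Lef1 is targeted as well. WT and LApcL were taken 21 days after tamoxifen and LApc after 29 days, and all organoids were used at passage 3 on day 6, after 40 minutes of trypsin and a 20 μm mesh. The labels call the cells sorted and name no gate. Each genotype had 1 library, and the labels do not say from how many mice or cultures. Genotype, day, library and the sex of the mice, which the labels do not give, therefore cannot be told apart, and no difference between genotypes has a replicate check. Apc was counted at 20.7, 88.1 and 94.5 CPM in barcodes of 1 library only with at least 10000 UMIs of WT, LApc and LApcL, and Lef1 at 0.914, 69.4 and 48.5 CPM. In shallower barcodes Lef1 was higher in LApcL than in LApc, at 44.3 against 31.8 CPM for 500 to under 2000 UMIs and 61.8 against 44.9 CPM for 2000 to under 10000. Neither gene was thus lower throughout in the libraries whose labels target it. These are counts per gene, not per deleted exon, and do not show how completely Apc and Lef1 were deleted.

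WT held 11411 barcodes with 87185429 UMIs, LApc 10706 with 118867221 and LApcL 12068 with 112057783, and the 6 RNAs took 3.35%, 2.98% and 2.66% of these UMIs. The same 3195 barcodes occurred in all 3 libraries, 28.0% of WT barcodes, 29.8% of LApc and 26.5% of LApcL. These shared barcodes went against the organoid label: 7 endothelial markers summed to 9919 to 10008 CPM in them and 7 epithelial markers to 17.6 to 60.5 CPM, whereas barcodes found in 1 library only held 2178 to 7970 CPM of the epithelial markers in any depth bin. CPM is the UMIs of a gene summed over a group of barcodes, scaled to a total of 1000000. Shared barcodes and barcodes of 1 library only were kept apart throughout, the latter in shallow (500 to under 2000 UMIs), middle (2000 to under 10000) and deep (at least 10000) bins of 2277, 4188 and 1635 barcodes in WT, 1712, 3293 and 2456 in LApc and 2498, 4081 and 2190 in LApcL. Among the barcodes of 1 library only, 223 of the 2277 shallow WT barcodes (9.79%) carried at least 0.1% endothelial marker UMIs, against 12 of 1712 in LApc and 12 of 2498 in LApcL. All 24 of the latter had under 1000 UMIs, where 1 marker UMI meets this limit. They held 10017 CPM of Malat1 and 29190 CPM of Gm26917 in LApc and 8284 and 37515 CPM in LApcL, unlike the WT barcodes described further on.

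Malat1 is an abundant long RNA of nuclear speckles, bodies rich in splicing factors, and Neat1 is the RNA scaffold on which paraspeckles are built. Gm26917 is a long noncoding RNA annotated in the stretch of chromosome 17 where the mouse assembly carries a copy of the ribosomal RNA precursor, and Rmrp is the RNA subunit of RNase MRP, an enzyme that cuts that precursor. Rmrp is transcribed by RNA polymerase III and carries no poly(A) tail. Lars2 encodes the mitochondrial leucyl-tRNA synthetase, which charges leucine tRNA inside mitochondria. Kcnq1ot1 is a nuclear antisense RNA of the paternal allele that keeps neighbouring imprinted genes silent. RNA that stays in the nucleus can outlast cytoplasmic RNA when a cell membrane leaks, and the mitochondrial share is widely used to find such cells.

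All coordinates are GRCm38 (mm10). Malat1 (ENSMUSG00000092341) lies at chr19:5795690-5802672 and Neat1 (ENSMUSG00000092274) at chr19:5824708-5845478, both on the reverse strand and each with 1 exon, of 6983 and 20771 bases. Gm26917 (ENSMUSG00000097971; chr17:39843013-39846341, forward strand) has 1 exon of 3329 bases, of which 69.1% are G or C, and ends 616 bases before Gm42418. Rmrp (ENSMUSG00000115420; chr4:43492783-43493063, reverse strand) has 281 bases. Lars2 (ENSMUSG00000035202; chr9:123366927-123462666, forward strand) has 21 exons and 3894 bases in transcript Lars2-201. Kcnq1ot1 (ENSMUSG00000101609; chr7:143203458-143296549, reverse strand) has 1 exon of 93092 bases.

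The libraries capture RNA by oligo(dT), which pairs with runs of A. The members differed widely in how many they contain, so the 20-base window with the most A of each transcript is shown, 5′ to 3′ along the RNA, with A in capitals. Of 141767 annotated transcripts, 5.41% had a window with at least 17 A, as Malat1 (bases 6674 to 6693, chr19:5795980-5795999) and Neat1 (bases 11362 to 11381, chr19:5834098-5834117) had, and 0.675% had one with 20, as Kcnq1ot1 (bases 15367 to 15386, chr7:143281164-143281183). Lars2 reached 13 (bases 2076 to 2095, in the coding sequence, chr9:123453229-123453248), a number matched by 43.7% of transcripts. Gm26917 with 9 (bases 2144 to 2163, chr17:39845156-39845175) and Rmrp with 7 (bases 29 to 48, chr4:43493016-43493035) were at the low end, since 95.4% and 99.3% of transcripts had as many or more. Longer transcripts have more windows, and where priming took place was not tested.
Malat1: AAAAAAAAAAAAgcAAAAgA
Neat1: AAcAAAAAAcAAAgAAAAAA
Gm26917: cAAAgggAAAgAggctAgcA
Rmrp: tAggctAcAtAcgAgggAcA
Lars2: cAAAAAcAAAAgAgAAgttA
Kcnq1ot1: AAAAAAAAAAAAAAAAAAAA

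Rmrp is short enough to be shown whole, because it was counted here although it has neither a poly(A) tail nor an A-rich window; the capital A of the window above fall within bases 29 to 48 of this sequence.
Rmrp, 281 bases: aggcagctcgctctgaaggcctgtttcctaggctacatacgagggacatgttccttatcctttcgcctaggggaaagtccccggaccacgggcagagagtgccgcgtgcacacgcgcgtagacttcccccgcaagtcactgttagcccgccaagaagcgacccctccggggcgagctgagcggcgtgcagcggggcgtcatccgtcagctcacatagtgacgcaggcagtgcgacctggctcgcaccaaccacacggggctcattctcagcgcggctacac

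The first question was at what level each RNA stood in every library and barcode group. In barcodes of 1 library only, Malat1 was counted at 8432, 9944 and 6144 CPM in the shallow, middle and deep bins of WT, at 10468, 17642 and 15297 CPM in LApc and at 6768, 12508 and 8305 CPM in LApcL. Shared barcodes held 50602, 51372 and 51924 CPM in WT, LApc and LApcL, above all 9 of those values. LApc was highest among the genotypes in every bin, and the shared barcodes of the 3 libraries differed from each other by less than any pair of genotypes in any bin.

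Neat1 stood at 654, 1098 and 685 CPM across the shallow, middle and deep bins of WT, at 256, 491 and 484 CPM in LApc and at 144, 307 and 382 CPM in LApcL. In shared barcodes it was 1399, 1349 and 1406 CPM. The order WT, LApc, LApcL was the same in all 3 bins, and, as with Malat1, the shared barcodes were above every other group.

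Gm26917 differed widely between the groups. Its level in the shallow, middle and deep bins was 48922, 61002 and 6142 CPM in WT, 25142, 42556 and 5133 CPM in LApc and 20507, 33138 and 6898 CPM in LApcL. In shared barcodes it was at 244, 232 and 261 CPM. One RNA thus took 6.10% of all UMIs in middle WT barcodes and 0.614% in deep ones, and the deep bins of the 3 libraries lay closer together than their shallower bins.

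Rmrp was counted at 358, 534 and 61.3 CPM in the shallow, middle and deep bins of WT, at 34.3, 63.1 and 9.74 CPM in LApc and at 30.6, 57.8 and 18.9 CPM in LApcL. All 3 WT values were above those of the other genotypes in the same bin. Over the 3195 shared barcodes, WT yielded 27 Rmrp UMIs (3.30 CPM), LApc 6 (1.08 CPM) and LApcL 7 (1.16 CPM).

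Lars2 stood at 4584, 3937 and 482 CPM in the shallow, middle and deep bins of WT, at 7543, 9780 and 1072 CPM in LApc and at 9058, 11919 and 2045 CPM in LApcL. Here WT was lowest and LApcL highest in every bin, the reverse of the order for Neat1. Shared barcodes held 568, 564 and 599 CPM, between the deep values of WT and LApc.

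Kcnq1ot1 was rare in barcodes of 1 library only, with 19.3, 3.25 and 11.9 CPM in the shallow, middle and deep bins of WT, 10.8, 23.0 and 27.5 CPM in LApc and 7.56, 17.0 and 46.5 CPM in LApcL. In the shallow WT bin the 223 barcodes with endothelial markers held 279 CPM and the other 2054 held 4.57 CPM. The shallow values rest on 49, 22 and 21 UMIs. Shared barcodes held 155, 163 and 159 CPM, more than 3 times the highest of the other 9 values.

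Single barcodes varied more than these pooled levels show. In deep WT barcodes the median share of Gm26917 was 0.0615% of a barcode's UMIs and the upper quartile 0.8996%, on either side of the pooled 0.614%. The medians of LApc and LApcL were 0.0518% and 0.198%, with upper quartiles of 0.398% and 1.16%. Deep barcodes were thus very unequal in this RNA. In middle barcodes the median was 5.86%, 2.33% and 2.32% in WT, LApc and LApcL, against a pooled 6.10%, 4.26% and 3.31%, so that only in WT did the median lie near the pooled share. Malat1 had a median of 0.253% in shallow WT barcodes against a pooled 0.843%, while in shared barcodes the middle 50% of barcodes lay between 3.47% and 7.37% in WT, 3.50% and 7.52% in LApc and 3.53% and 7.61% in LApcL.

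**Figure D1:**
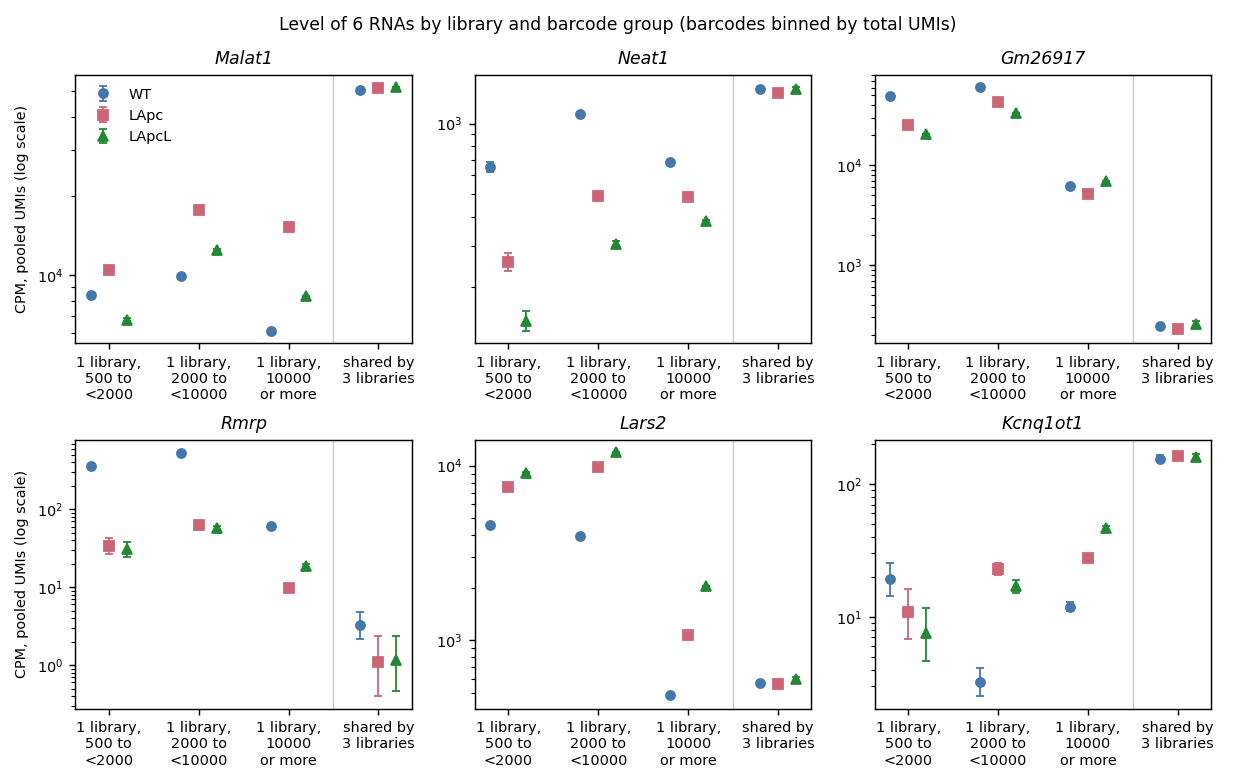
CPM of each RNA on a log axis, by library (WT circles, LApc squares, LApcL triangles) and barcode group, with exact Poisson intervals at the 95% level. Malat1, Neat1 and Kcnq1ot1 are highest in the shared barcodes at the right of each panel, at 50602 to 51924, 1349 to 1406 and 155 to 163 CPM, and Gm26917 and Rmrp are lowest there.

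Within each library, shallow barcodes were then set against deep ones, both from barcodes of 1 library only. Gm26917 and Lars2 were higher in the shallow barcodes of all 3 libraries, and Rmrp in those of WT and LApc by more than 2-fold. Log2 ratios of Gm26917 were 2.99 (2.98 to 3.00) in WT, 2.29 (2.28 to 2.31) in LApc and 1.57 (1.56 to 1.58) in LApcL, and those of Lars2 were 3.25 (3.22 to 3.28), 2.81 (2.79 to 2.84) and 2.15 (2.13 to 2.17). For Rmrp they were 2.55 (2.44 to 2.65), 1.81 (1.44 to 2.17) and 0.69 (0.36 to 1.01). These 3 RNAs were ordered WT, LApc, LApcL. With barcodes weighted equally, Gm26917 had 1.80 and Lars2 2.35 in WT. Without barcodes over 20% mitochondrial UMIs and those with endothelial markers, Gm26917 had 4.24 and Lars2 4.82 in WT. Rmrp in LApcL then had 1.73, past 2-fold. The pooled mitochondrial share was 44.2%, 43.1% and 41.0% in shallow and 13.8%, 7.85% and 8.01% in deep barcodes. The median over shallow barcodes was 46.8%, 46.4% and 33.0%, and at 500 to under 1000 UMIs it was 35.1%, 32.6% and 4.27%, lowest in LApcL, and the part of this in the order was not tested. Intervals here and below are exact at the 95% level, cover counting error only and say nothing about the spread between mice or cultures.

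The nuclear body RNAs had smaller ratios or ratios of the other sign. Malat1 had log2 ratios of 0.46 (0.44 to 0.48), -0.55 (-0.57 to -0.53) and -0.30 (-0.32 to -0.27) in WT, LApc and LApcL, and Neat1 of -0.07 (-0.14 to 0.00), -0.92 (-1.05 to -0.79) and -1.41 (-1.56 to -1.27). Kcnq1ot1 had 0.70 (0.25 to 1.12) in WT, -1.35 (-2.03 to -0.75) in LApc and -2.62 (-3.31 to -2.01) in LApcL. Genes were counted as tested where either group reached 10 CPM. Their median was -0.59, -0.90 and -0.94, so both negative values of Malat1 lay above the median gene and turned to 0.35 and 0.65 in LApc and LApcL when ratios were centred on it; Neat1 in WT turned to 0.52. Without barcodes over 20% mitochondrial UMIs, Malat1 had 1.89 and Neat1 1.04 in WT, both past 2-fold higher. With barcodes that carried endothelial markers left out too, they had 0.89 and 0.93, neither past 2-fold, and Malat1 in LApc had 0.40.

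Past 2-fold, 3 of 6 members were higher and 0 lower in WT, where 4.77% of 7863 genes tested were higher and 30.3% lower. In LApc 3 were higher and 1 lower, against 0.695% and 43.8% of 8491 genes, and in LApcL 2 were higher and 2 lower, against 0.843% and 46.4% of 8421 genes. Because this contrast was used to choose the members, nothing is read from these counts. Centred on the median gene, 12.3% of genes were higher and 9.14% lower in WT, 6.08% and 4.32% in LApc and 7.91% and 5.65% in LApcL, with 5 members higher and 0 lower, 3 and 0, and 3 and 1. With the nuclear-encoded UMIs alone as denominator, the members gave the same 3 pairs of counts, against 16.2% and 7.42% of genes in WT, 4.58% and 8.57% in LApc and 3.92% and 14.1% in LApcL.

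The WT values of Malat1 and Kcnq1ot1 depended on the few shallow barcodes that carried endothelial markers. These 223 barcodes held 64314 CPM of Malat1, 1529 CPM of Neat1 and 279 CPM of Kcnq1ot1, and only 4638 CPM of Gm26917 and 1272 CPM of Lars2 (shared WT barcodes of the same depth held 71384, 1667 and 164 CPM of the first 3). The other 2054 shallow WT barcodes held 5274, 604 and 4.57 CPM of the first 3 and 51424 and 4771 CPM of the last pair. Without the 223, the WT log2 ratio was -0.22 for Malat1 and -1.38 for Kcnq1ot1, the sign seen in LApc and LApcL, while Gm26917 kept 3.07 and Lars2 3.31.

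Along 9 finer steps of depth, Gm26917 did not fall steadily. In WT it went from 23770 CPM at 500 to under 1000 UMIs to 73384 CPM at 2000 to under 4000, then to 30928 CPM at 10000 to under 20000 and 3681 CPM at 20000 to under 40000. LApc peaked at 47810 CPM and LApcL at 36000 CPM, both at 4000 to under 7000 UMIs, and dropped to 3555 and 6133 CPM in the step from 20000. Lars2 and Rmrp were likewise highest in a step below 7000 UMIs in every library, and their largest fold drop also lay between the steps from 10000 and from 20000 UMIs, for example from 2120 to 357 CPM for Lars2 in WT. At the bin limits Gm26917 in WT was 65810 CPM at 1500 to under 2000 UMIs and 62112 CPM at 2000 to under 2500, and 39497 and 38284 CPM on either side of 10000. In LApcL the levels stepped up at 2000 UMIs, Malat1 from 6189 to 8771 CPM, Neat1 from 142 to 227 CPM and Kcnq1ot1 from 2.56 to 15.5 CPM, and Rmrp in LApc went from 39.5 to 61.3 CPM there.

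Malat1 and Neat1 were highest at intermediate depth in LApc and LApcL. Malat1 in LApc went from 10375 CPM at 500 to under 1000 UMIs to 22011 CPM at 10000 to under 20000 and back to 10026 CPM at 70000 or more. In WT it started at 17894 CPM, stood at 4762 CPM in the next step, and rose to 10935 CPM at 7000 to under 10000 UMIs. The first step held 221 of the 223 shallow WT barcodes with endothelial markers, at 65551 CPM, and its other 804 barcodes held 6900 CPM. Neat1 was highest at 7000 to under 10000 UMIs in WT (1295 CPM) and at 10000 to under 20000 in LApc (613 CPM) and LApcL (468 CPM). In shared barcodes Malat1 fell with depth in every library, and its Spearman correlation with total UMIs over the 3195 barcodes was -0.41, -0.40 and -0.41 in WT, LApc and LApcL. A share and the total it is divided by have the same UMIs in common, so this is a description only.

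**Figure D2:**
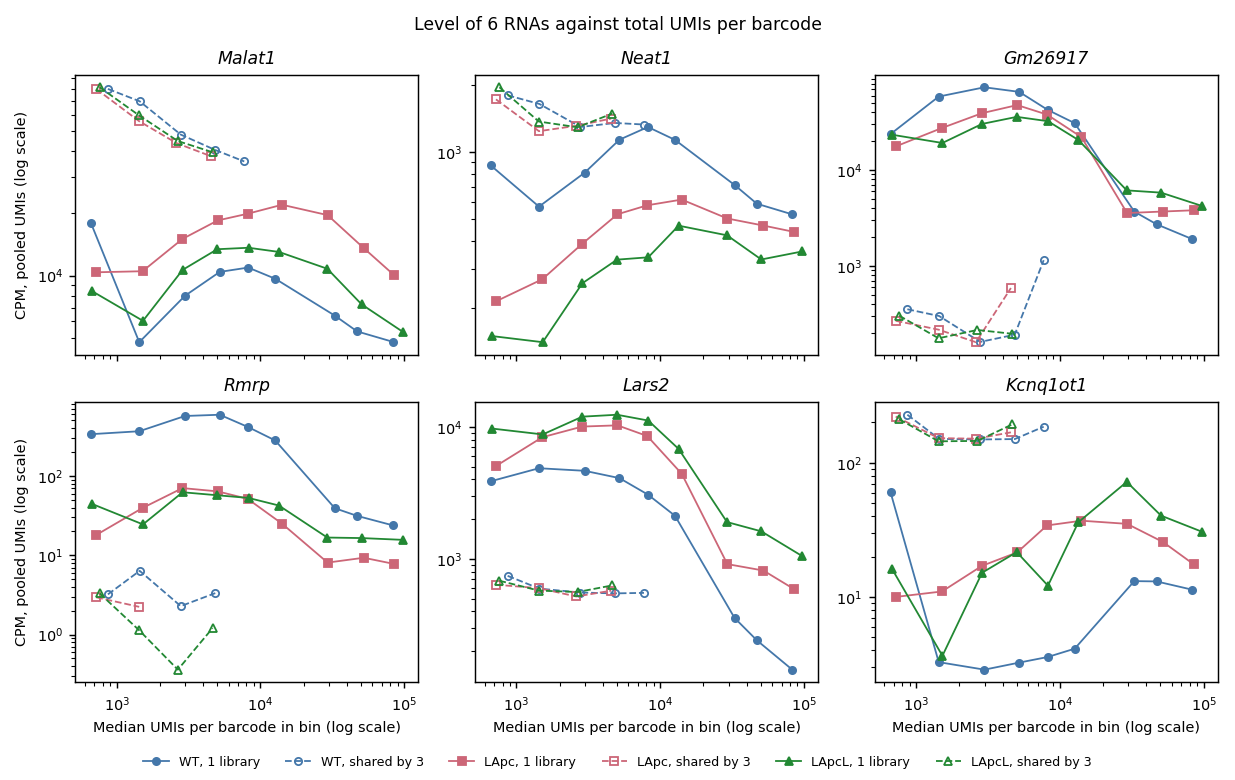
Pooled CPM of each RNA against the median UMIs of the barcodes in each depth step, both on log axes, for barcodes of 1 library only (filled, solid) and for shared barcodes (open, dashed); steps with under 20 barcodes and levels of 0 are not drawn. Gm26917, Rmrp and Lars2 drop steeply between the steps from 10000 and from 20000 UMIs, in WT for Gm26917 from 30928 to 3681 CPM.

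The next question was how each RNA went with the mitochondrial share within a depth bin. In middle barcodes, those with a mitochondrial share of at least 20% were set against those under 20%, with 3077 against 1111 barcodes in WT, 2361 against 932 in LApc and 2420 against 1661 in LApcL. Mitochondrial UMIs are part of the total, so the shares of other genes fall by construction, and the median gene had log2 ratios of -0.69, -0.69 and -0.67. Malat1 had -0.37, -0.23 and -0.23 and Neat1 -0.42, 0.08 and 0.13 in WT, LApc and LApcL, all above the median gene, so that all 6 were positive when centred on it. Gm26917 had -0.62, -1.25 and -0.90, Rmrp -0.47, -1.04 and -0.43, and Lars2 -0.91, -0.91 and -0.73. Centred, Gm26917 (0.08) and Rmrp (0.23) turned positive in WT, Rmrp (0.24) in LApcL, and the other 6 of these 9 values stayed negative, from -0.56 to -0.06.

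Kcnq1ot1 was the only member with a ratio above 2-fold in this contrast. It stood at 10.9 CPM (49 UMIs) under 20% and at 28.5 CPM (284 UMIs) above in LApc, a log2 ratio of 1.39 (0.94 to 1.85), and at 11.6 and 21.3 CPM in LApcL, 0.88 (0.52 to 1.24). In WT it was under 10 CPM on both sides and was not tested, with 51 and 15 UMIs.

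In WT 0 of 5 members tested were past 2-fold in either direction, where 0.206% of 8253 genes were higher and 14.9% lower. In LApc 1 was higher and 2 lower, where 0.226% and 18.3% of 8399 genes were, and in LApcL 0 of 6 were past 2-fold, where 0.184% and 16.5% of 8146 genes were. Centred on the median gene, genes past 2-fold were 0.509% higher and 1.13% lower in WT, 0.548% and 0.595% in LApc and 0.614% and 0.430% in LApcL, with 0 members, 1 higher and 1 higher. With nuclear-encoded UMIs as denominator the members gave the same counts, and genes 0.317% and 1.35%, 0.587% and 0.919%, and 0.493% and 0.642%.

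The direction depended on depth. Among deep barcodes the same contrast gave 3.02, 2.80 and 2.28 for Gm26917 in WT, LApc and LApcL, 2.94, 1.88 and 2.19 for Rmrp and 2.34, 2.44 and 2.28 for Lars2, all above 0 where the middle barcodes were below it. Malat1 (0.77, 0.79 and 0.67) also turned positive there. Depth was not fixed by this bin, since its barcodes of 20% and over had medians of 13036, 14471 and 13272 UMIs and those under 20% of 38074, 34377 and 32584. At 10000 to under 20000 UMIs alone, Gm26917 had 0.31, 1.02 and 0.61, Rmrp 0.81, 0.89 and 1.37, Lars2 -0.43, 0.76 and 0.53 and Malat1 0.44, 0.06 and 0.13. At 20000 to under 40000 UMIs Gm26917 had 2.82, 3.12 and 2.64, with 59, 61 and 43 barcodes of 20% and over, and these were again the less deep ones, at medians of 24122 against 33546 UMIs in WT, 26958 against 29559 in LApc and 23115 against 29448 in LApcL. The size of the deep ratios thus moved with depth, and in WT the sign of Lars2 did. Among shallow barcodes all 3 libraries had Malat1 lower at high mitochondrial share, with log2 ratios of -2.28, -1.29 and -1.25. The WT value went with the barcodes that carried endothelial markers: at a mitochondrial share under 20% the 673 shallow WT barcodes held 20899 CPM of Malat1, and the 485 of them without those markers 10496 CPM, against 3834 CPM in those of 20% and over without the markers.

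Kcnq1ot1 turned as well. In LApcL it had -1.35 among deep barcodes, from 18.7 CPM (79 UMIs) at 20% and over and 47.9 CPM (3860 UMIs) under 20%, and -1.27 among shallow ones, from 10 and 11 UMIs. In LApc it had 0.61 among deep barcodes and 0.00 among shallow ones, the latter from 17 and 5 UMIs.

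Finer bins showed where the levels changed. In deep barcodes Gm26917 stood at 1280, 1096 and 1724 CPM in WT, LApc and LApcL at a mitochondrial share under 5%, and at 27321, 28466 and 28980 CPM at 20% to under 40%. The 3 libraries thus lay close together in the higher bin and further apart in the lower one. Lars2 went from 472, 408 and 731 CPM to 1621, 4947 and 8453 CPM between the same bins, in the order WT, LApc, LApcL in the higher bin and with LApc lowest in the lower one. Rmrp was 21.5, 8.52 and 15.4 CPM at 5% to under 10% and 260, 32.6 and 70.0 CPM at 20% to under 40%.

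In middle barcodes Gm26917 and Lars2 were highest in bins under 10% and declined from 10% upwards in every library. WT went from 93518 CPM of Gm26917 at 5% to under 10% to 25610 CPM at 60% and over, and LApc from 79398 to 10067 CPM. Malat1 in middle barcodes was nearly level below 40% and fell above: in WT 11557 CPM under 5%, 11125 CPM at 20% to under 40% and 3935 CPM at 60% and over. In deep LApc barcodes it rose instead, from 15995 CPM under 5% to 36446 CPM at 40% to under 60%, which rests on 52 barcodes. At the 20% limit itself, in middle WT barcodes, Gm26917 was 86502 CPM at 15% to under 20% and 77924 CPM at 20% to under 25%.

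**Figure D3:**
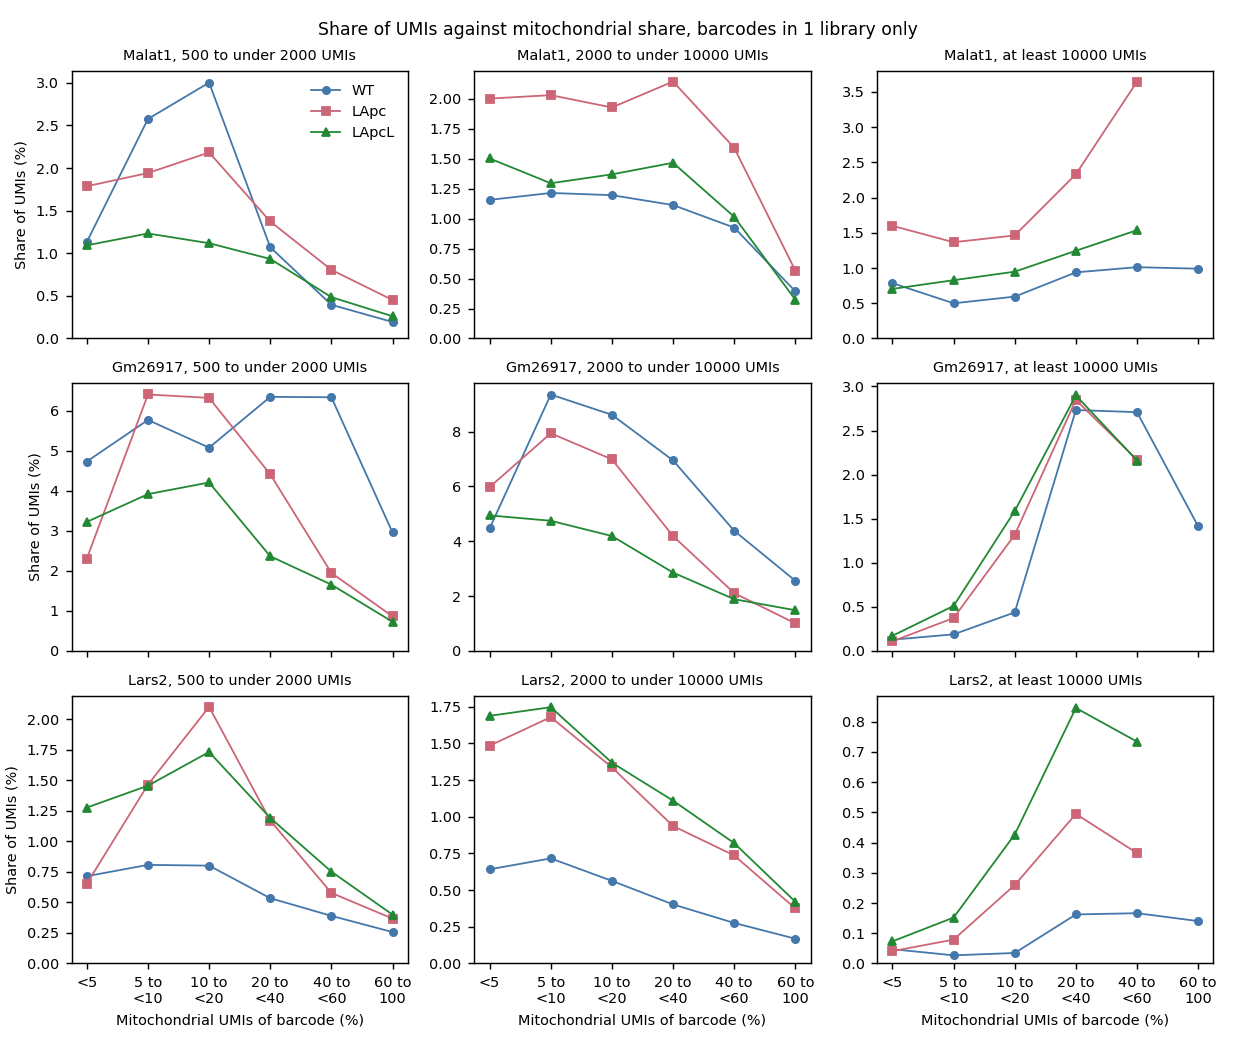
Share of UMIs of Malat1, Gm26917 and Lars2 in barcodes of 1 library only, in 6 bins of the mitochondrial share, by depth bin (columns) and library. Bins with under 20 barcodes are not drawn, and the vertical axes differ between panels. In deep barcodes, at the right, Gm26917 rises from 0.128%, 0.110% and 0.172% in WT, LApc and LApcL under 5% to 2.73%, 2.85% and 2.90% at 20% to under 40%, whereas in middle barcodes it declines over the upper bins.

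Across single barcodes the shares of some members went together. Gm26917 and Lars2 had Spearman correlations of their shares of 0.75 in WT (1635 barcodes), 0.72 in LApc (2456) and 0.85 in LApcL (2190) among deep barcodes, and of 0.51, 0.59 and 0.51 among middle ones. Malat1 and Neat1 had 0.62, 0.48 and 0.40 among deep and 0.58, 0.44 and 0.33 among middle barcodes. Malat1 with Gm26917 had 0.28, -0.24 and 0.05 in deep barcodes and Malat1 with Lars2 0.40, -0.06 and 0.17. Rmrp went with Gm26917 most in WT, at 0.66 in deep barcodes against 0.29 and 0.33 in LApc and LApcL, where far fewer Rmrp UMIs were counted, and Kcnq1ot1 with Gm26917 had -0.20, -0.08 and -0.36. Barcodes of a library share its reagents and free RNA, and depth differs between them, so these values describe the libraries.

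Barcodes shared by all 3 libraries were compared with barcodes of 1 library only at the same depth, 500 to under 2000 UMIs, with 1441 against 2277 barcodes in WT, 2156 against 1712 in LApc and 2012 against 2498 in LApcL. Malat1, Neat1 and Kcnq1ot1 were higher in the shared barcodes in all 3 libraries and Gm26917, Rmrp and Lars2 lower. The shared side was the same set of barcodes each time, with near-equal values in each library as given further on, so the 3 libraries are not 3 independent observations of it. Where these barcodes came from was not tested. Malat1 had log2 ratios of 3.08 (3.06 to 3.10) in WT, 2.58 (2.56 to 2.60) in LApc and 3.27 (3.25 to 3.29) in LApcL, at 71384, 62450 and 65147 CPM in the shared barcodes. Neat1 had 1.35, 2.42 and 3.40 and Kcnq1ot1 3.09 (2.65 to 3.55), 3.995 (3.38 to 4.68) and 4.42 (3.79 to 5.13). The spread of Neat1 between the libraries lay in the barcodes of 1 library only, since its shared levels in this bin were 1667, 1372 and 1518 CPM. The WT values moved with the barcodes compared. Without the 223 barcodes of 1 library that carried endothelial markers, Kcnq1ot1 had 5.16 in WT, from 308 and 11 UMIs, Malat1 3.76 and Neat1 1.46. Without barcodes over 20% mitochondrial UMIs they had 1.25, 1.76 and 0.33, and at 2000 to under 10000 UMIs Neat1 in WT had 0.26, so that it was past 2-fold under neither.

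Gm26917 was 160-fold lower in shared than in other barcodes of WT, 110-fold in LApc and 99.3-fold in LApcL, with log2 ratios of -7.32 (-7.44 to -7.20), -6.78 (-6.90 to -6.66) and -6.63 (-6.76 to -6.50). Only 0.222%, 0.150% and 0.417% of genes tested had a lower ratio. Lars2 had -2.89, -3.63 and -3.91. For Rmrp, with 11, 6 and 4 UMIs in the shared barcodes of this bin, the ratios were -5.94 (-6.94 to -5.09), -3.81 (-5.31 to -2.62) and -4.18 (-6.09 to -2.77).

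All 6 members were past 2-fold in each library, 3 higher and 3 lower. Of all genes tested, 50.2% were higher and 13.1% lower in WT, 44.4% and 12% in LApc and 46.2% and 12.6% in LApcL, and since the rule used this contrast too, nothing is read from the counts. Centred on the median gene (log2 1.01, 0.81 and 0.86 before centring), 26.4% and 23.9% of genes were past 2-fold in WT, 26.6% and 21.9% in LApc and 28.0% and 24.5% in LApcL; Neat1 in WT was then at 0.34 and no longer past 2-fold. With nuclear-encoded UMIs as denominator Neat1 in WT had 0.62, and 29.4% and 23.2%, 26.0% and 23.5%, and 29.2% and 23.5% of genes were past 2-fold. The same barcodes differed in the cell type markers given above and in pooled mitochondrial share, 5.35%, 5.24% and 5.26% over all shared barcodes, and the part of these in the result was not tested.

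**Figure D4:**
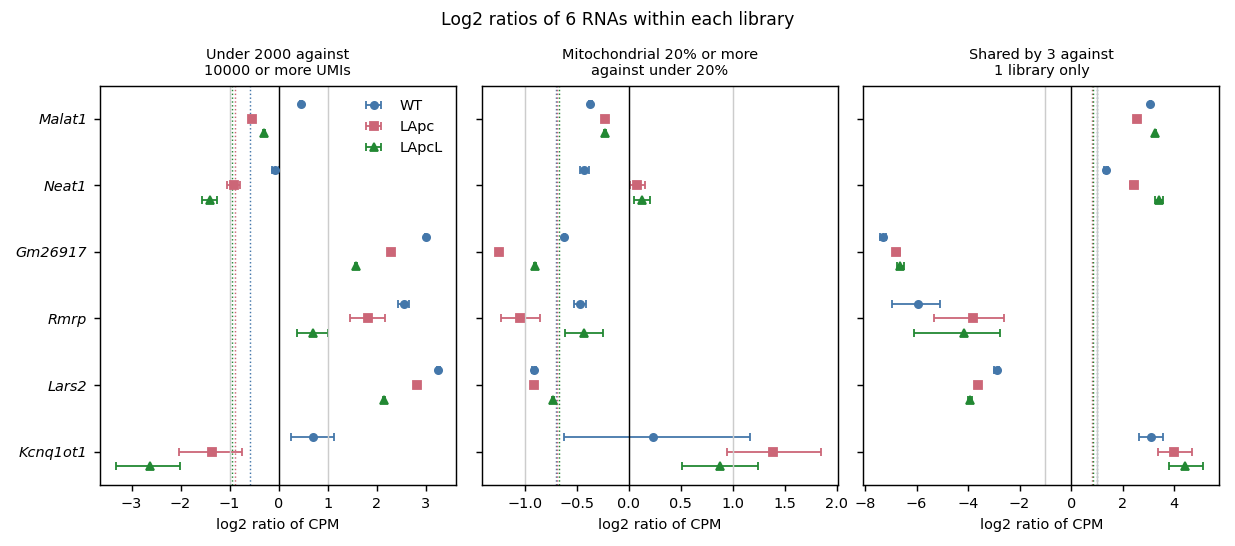
Log2 ratios of CPM of each RNA within each library, shallow against deep barcodes (left), high against low mitochondrial share in middle barcodes (centre) and shared against other barcodes under 2000 UMIs (right), with exact 95% intervals. Grey lines mark 2-fold, dotted lines the median of all genes tested in each library. In the right panel Malat1, Neat1 and Kcnq1ot1 lie above 0 and Gm26917, Rmrp and Lars2 below it in all 3 libraries.

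The shared barcodes also held the same values barcode by barcode. The share of Malat1 in a barcode of the WT library and in the same barcode of LApc had a Spearman correlation of 0.97 over 3195 barcodes, as it had between WT and LApcL (0.97) and between LApc and LApcL (0.96). The median of the absolute difference was 0.399 percentage points between WT and LApc, 0.389 between WT and LApcL and 0.429 between LApc and LApcL, and 84.2%, 85.0% and 81.1% of barcodes were within 1 point. Malat1 took a median of 5.18%, 5.24% and 5.29% of a shared barcode's UMIs. The order of barcodes by total UMIs was also alike, with Spearman correlations of 0.99 in each pair, though the totals themselves differed, with medians of 2176, 1483 and 1609 UMIs in WT, LApc and LApcL, and the mitochondrial share had correlations of 0.93 to 0.94.

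The other members were less alike from library to library. Neat1 had correlations between libraries of 0.68 to 0.74 over the shared barcodes, Kcnq1ot1 of 0.49 to 0.55, Lars2 of 0.39 to 0.42 and Gm26917 of 0.30 to 0.31. Neat1 rested on 7494 to 11450 UMIs per library and Gm26917 on 1288 to 2001. Rmrp had too few UMIs for a value to be read. The order of these correlations was not the order of the counts, as Lars2 had 3135 to 4648 UMIs and Kcnq1ot1 907 to 1272.

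**Figure D5:**
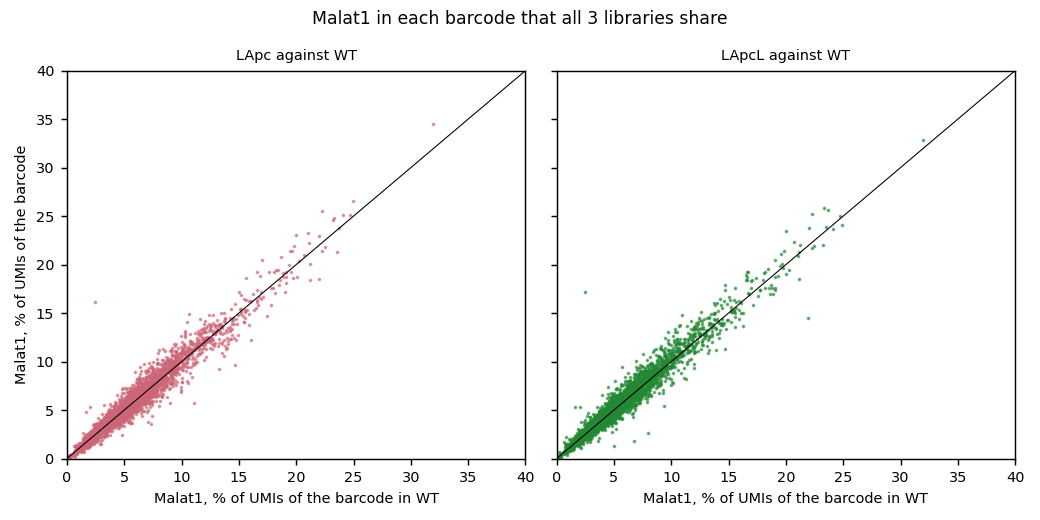
Share of Malat1 in each of the 3195 shared barcodes, LApc (left) or LApcL (right) against WT, in percent of the UMIs of the barcode, with the line of equal values. Points lie along the line, with correlations of 0.97 in both panels.

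Between genotypes, deep barcodes of 1 library only were compared. LApc against WT, the comparison for the Apc genotype, gave higher Malat1, Lars2 and Kcnq1ot1 and lower Rmrp in LApc. Malat1 was counted at 15297 CPM in LApc and 6144 CPM in WT, a log2 ratio of 1.32 (1.31 to 1.32), Lars2 at 1072 and 482 CPM, 1.15 (1.13 to 1.17), and Kcnq1ot1 at 27.5 and 11.9 CPM, 1.21 (1.09 to 1.34). Rmrp had 937 UMIs in LApc and 3420 in WT, or 9.74 and 61.3 CPM, a log2 ratio of -2.65 (-2.76 to -2.55). Neat1 had -0.50 and Gm26917 -0.26, and the latter turned to 0.24 without barcodes over 20% mitochondrial share. At other depths Malat1 and Kcnq1ot1 moved. In shallow barcodes Malat1 had 0.31 and Kcnq1ot1 -0.84, where the WT side held the 223 barcodes with endothelial markers. In middle barcodes Malat1 stood at 17642 CPM in LApc and 9944 CPM in WT, and Kcnq1ot1 had 2.82.

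Past 2-fold, 3 of 6 members were higher in LApc and 1 lower, while 25.8% of 9062 genes were higher and 10.4% lower and the median gene had 0.51. When centred on that median, 0 members were higher and 2 lower (Rmrp at -3.17 and Neat1 at -1.02), and 13.6% and 16.6% of genes were. The share of members that were higher therefore depended on the scaling, and Rmrp was lower under both. Deep WT barcodes held 20048 CPM of 8 enterocyte markers and deep LApc barcodes 5.14 CPM, and the part of this difference in cell makeup in the ratios was not tested; with WT barcodes of 1% or more enterocyte UMIs left out, Lars2 had 0.57.

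LApcL against LApc, the comparison for the Lef1 genotype, had 0 of 6 members past 2-fold, while 1.43% of 8721 genes were higher and 3.36% lower and the median gene had 0.05. Malat1 was lower in LApcL, at 8305 against 15297 CPM, with a log2 ratio of -0.88 (-0.89 to -0.88), and Neat1 at 382 against 484 CPM, -0.34. Gm26917 had 0.43, Rmrp 0.96 (0.84 to 1.07), Lars2 0.93 (0.92 to 0.94) and Kcnq1ot1 0.76 (0.68 to 0.83). In the middle barcodes Malat1 (12508 against 17642 CPM), Neat1 (307 against 491) and Lars2 (11919 against 9780) differed in the same direction, whereas Gm26917, Rmrp and Kcnq1ot1 were lower in LApcL there. LApc serves in both comparisons, so their values are not independent.

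Genes that belong to the same bodies, enzymes or loci as the members were counted as lists, beside the percentages of all genes given above. A gene that reached 10 CPM in only 1 of the groups compared had to be higher in that group, so these counts are descriptions. Other noncoding RNAs numbered 31 of 36 listed. In shallow against deep barcodes, 6 of 21 tested were higher and 3 lower in WT, 2 and 8 of 26 in LApc and 3 and 10 of 23 in LApcL. AY036118 (log2 4.16 in WT, 3.82 in LApc and 4.09 in LApcL) and Gm42418 (3.33 in LApc and 2.90 in LApcL), the 2 neighbours of Gm26917 on chromosome 17, had high ratios, as had the imprinted RNA H19 in WT (3.16, from 29 and 71 UMIs). The lowest were Snhg6 (-1.41) and Epb41l4aos (-1.40) in WT, Snhg6 (-1.31) and Snhg16 (-1.27) in LApc, and Snhg16 (-1.74) and 2900097C17Rik (-1.69), the gene of Norad, in LApcL. Snhg16 was not lower in WT, at 13.4 CPM in shallow and 12.6 CPM in deep barcodes.

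Gm42418 did not follow its neighbour into the shared barcodes. It stood at 57757 to 93737 CPM in shallow and middle barcodes of 1 library only, at 9325 to 11794 CPM in deep ones and at 44747 to 46494 CPM in shared ones. Gm42418 had 1.07 to 4.30 UMIs per Gm26917 UMI in the 9 groups of barcodes of 1 library only and 177 to 193 in the shared barcodes. AY036118, which overlaps Gm42418 on the other strand, had 2461 to 2482 CPM in the shared barcodes. The split of reads among these 3 overlapping or adjacent genes with ribosomal RNA sequence is uncertain.

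Few proteins of the nuclear bodies were past 2-fold between shallow and deep barcodes. Of 8 paraspeckle proteins, 0 were higher and 1, 1 and 2 lower in shallow barcodes of WT, LApc and LApcL. Nono, a core paraspeckle protein, was the lowest in each (-1.27, -1.18 and -1.23), and Pspc1, another paraspeckle protein, had 0.70 in WT. Of 9 nuclear speckle proteins, 0 were higher and 0, 0 and 3 lower, with Son (0.54) the highest in WT, Srrm2 (0.10) in LApc and Srrm1 (0.51) in LApcL and the splicing factors Srsf5 (-0.58) in WT and Srsf7 (-1.44) in LApcL the lowest. Their medians, -0.07 and -0.12 in WT, -0.50 and -0.53 in LApc and -0.51 and -0.55 in LApcL, were above that of all genes in each library.

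In shared against other barcodes, paraspeckle proteins past 2-fold were 3 higher and 0 lower in WT, 1 and 1 in LApc and 1 and 1 in LApcL, and speckle proteins 5 and 0, 3 and 0, and 4 and 1. Of the 8 paraspeckle proteins 5 were higher and 0 lower in LApc than in WT, with Smarca4 at 1.31 and Rbm14 the lowest at 0.03, and their median was 1.02. The speckle list had 3 of 9 higher and a median of 0.79, led by Srrm1 (1.14). In LApcL against LApc, 0 of either list passed 2-fold.

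The protein partners of Rmrp summed to 120, 122 and 135 CPM in shallow and to 328, 330.5 and 366 CPM in deep barcodes of WT, LApc and LApcL. Of these 12 proteins of RNase MRP and the related RNase P, 8, 9 and 10 were tested, and 7, 8 and 8 were lower in shallow than in deep barcodes with 0 higher. Of those lower, 5, 3 and 3 reached 10 CPM in deep barcodes only, so that for them the filter fixed the direction, and nothing is read from these counts. Pop5 had -1.69 and -1.99 in WT and LApc, and Pop7 had -2.02, -1.83 and -1.90 in the 3 libraries. In shared against other barcodes 4, 1 and 2 of 7, 7 and 8 tested were higher and 0, 0 and 1 lower, led by Pop7 (1.73) and Pop4 (1.63) in WT, where all 4 reached 10 CPM in shared barcodes only. In LApc against WT, where Rmrp was lower, 1 was higher (Pop1, 1.23) and 1 lower (Rpp38, -1.36) of 9, and 0 of 10 passed 2-fold in LApcL against LApc. Pop1 reached 10 CPM in LApc only, at 10.1 against 4.32 CPM, so that the filter fixed its direction.

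No other mitochondrial aminoacyl-tRNA synthetase had the pattern of Lars2. Of 16 listed, 9, 9 and 10 were tested for depth, and 0 were higher and 1, 0 and 2 lower in shallow barcodes, with medians of -0.36, -0.70 and -0.66. The highest were Vars2 (0.50), Tars2 (-0.31) and Iars2 (0.03) in WT, LApc and LApcL, and Fars2 (-1.15), Rars2 (-0.79) and Hars2 (-1.14) were the lowest. In LApc against WT 1 of 10 was higher and 1 lower (Mars2, -1.91), and in LApcL against LApc 0 of 10 passed 2-fold. In shared against other barcodes 0 were higher and 3 of 8, 0 of 6 and 0 of 8 lower. Several of these synthetases reached 10 CPM in 1 of the groups compared only, so that the filter fixed their direction. They were the 2 lower for depth in LApcL, the 1 higher and 1 lower in LApc against WT and the 3 lower in shared WT barcodes. Nothing is read from these counts. All 13 mitochondrial mRNAs were higher in shallow barcodes, with medians of 1.68, 2.43 and 2.41, and all 13 lower in shared ones, with medians of -2.65, -2.79 and -2.63. Bases 3278 to 3349 of the Lars2 transcript match Gm15564-202 at 98.6% over 72 bases, so reads of this stretch could be split or lost between both genes, and Gm15564 was counted at no more than 11.5 CPM in any group.

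The genes of the imprinted region around Kcnq1ot1 were 12, of which 7, 8 and 7 were tested for depth. None was higher and 3, 6 and 6 were lower in shallow barcodes, of which 2, 3 and 1 reached 10 CPM in deep barcodes only, and nothing is read from these counts. Summed over all 12, they stood at 168, 326 and 305 CPM in shallow and at 316, 979.5 and 947 CPM in deep barcodes. Cdkn1c, a cell cycle inhibitor, had -1.81 in WT and -2.16 in LApc and Cd81, a surface protein, -2.08 in LApcL. In shared against other barcodes 6 of 7, 4 of 8 and 4 of 8 were higher and 1, 2 and 2 lower. Of all genes tested, 50.2%, 44.4% and 46.2% were higher. Osbpl5 (4.39, 2.41 to 7.50, from 31 and 2 UMIs, in WT and 2.66 in LApcL), Cd81 (3.16 in WT) and Tnfrsf23 (3.33 in LApc and 3.79 in LApcL) led. Of the genes higher, 2, 3 and 2 reached 10 CPM in shared barcodes only, so that the filter fixed their direction. They include Osbpl5 in WT and LApcL and Tnfrsf23 in LApc and LApcL, and nothing is read from these counts. Kcnq1, the gene that overlaps Kcnq1ot1, was lower in each (-1.02, -1.59 and -1.92). Kcnq1 and Kcnq1ot1 overlap on opposite strands. In LApc against WT 6 of 8 were higher and 0 lower, Ascl2 at 6.01 (0.986 to 63.7 CPM) and Cdkn1c at 3.63 (12.4 to 153 CPM), where 25.8% of all genes were higher. Of the 6, 2 reached 10 CPM in LApc only, Ascl2 among them, so that the filter fixed their direction. In LApcL against LApc Cdkn1c fell by 2.30 on the log2 scale to 31.1 CPM, the 1 of 8 past 2-fold.

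The lists were also counted between high and low mitochondrial share in middle barcodes. Of all genes tested, 14.9%, 18.3% and 16.5% were lower past 2-fold in WT, LApc and LApcL. Other noncoding RNAs had 1 higher and 1 lower of 21 in WT (H19, 1.28, and Snhg17, -1.11), 1 and 1 of 26 in LApc (Tsix, 1.27, and Snhg18, -1.07) and 0 of 23 in LApcL. Paraspeckle proteins had 1 of 8 lower in LApc (Rbm14, -1.04) and speckle proteins 0 of 9 in each library. RNase MRP and P proteins, with medians of -0.99, -0.61 and -0.77 where the median gene had -0.69, -0.69 and -0.67, had 4 of 9, 1 of 7 and 1 of 7 lower, led in WT by Rpp30 (-1.74) and Pop5 (-1.26), and mitochondrial synthetases 1 of 13, 4 of 11 and 1 of 10, with Yars2 at -1.46 in WT and Fars2 at -1.24 in LApc. Of those lower, 3 RNase proteins in WT, 1 synthetase in WT and 2 in LApc reached 10 CPM under 20% only. For them the filter fixed the direction, and nothing is read from these counts. The imprinted region had 0 of 5, 2 of 6 and 2 of 5 lower, Cdkn1c (-1.15) and Ascl2 (-1.03) in LApc, opposite to Kcnq1ot1 there. All of these lower values lay below the median gene of -0.69 in WT and LApc, which itself falls by construction.

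Xist and Tsix, the RNA pair of the X inactivation centre in the list of other noncoding RNAs, separated LApc from the other libraries. Xist stood at 1363 CPM in deep LApc barcodes against 1.06 CPM in WT and 0.283 CPM in LApcL, so that genotype and Xist level cannot be told apart in either comparison. Xist is the RNA of the inactive X chromosome and is normally made in female cells. The labels used here give no sex, and sex and genotype cannot be told apart either. Of that list, 5 of 25 were higher in LApc than in WT, Xist, Tsix, Pvt1 (14.9 against 0.806 CPM), Snhg18 (45.1 against 7.96 CPM) and Airn (18.8 against 4.73 CPM), and 2 lower, Dleu2 (-1.53) and Snhg20 (-1.25). In LApcL 0 were higher than in LApc and 3 lower, Xist, Tsix and Mir22hg. All 5 genes higher in LApc than in WT and all 3 lower in LApcL reached 10 CPM in LApc only. The filter thus fixed their direction, and nothing is read from these counts. Of all genes tested, 25.8% were higher in LApc than in WT, and 3.36% were lower in LApcL than in LApc. Pvt1, Airn and Mir22hg are named for these counts after their values were seen.

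Finally, the genes whose level was most like that of each member were taken over the 12 groups of barcodes (3 depth bins and the shared barcodes in 3 libraries), by Pearson correlation of log2(CPM + 1) among 5095 genes with at least 50 CPM in 1 group. The 12 groups include shared barcodes with near-equal values in 3 libraries, so the correlations rest on fewer distinct points. Malat1 was most like Sgms1 (0.99), a sphingomyelin synthase, Ccnl1 (0.98) and Sqstm1 (0.98), and Neat1 like Pvr (0.98), Mef2d (0.98) and the immediate early gene Jun (0.97). Gm26917 was most like the histone genes Hist1h2bj (0.995), Hist1h2ak (0.99) and Hist1h3e (0.99). Rmrp was most like Snhg20 (0.98), Hist1h2ac (0.97) and Gm49890 (0.96), Lars2 like Paxbp1 (0.98), Gm20594 (0.97) and Dhx16 (0.93), and Kcnq1ot1 like Adgrg1, Arl13b and Nfic (all 0.97). Among the members themselves Gm26917 went with Rmrp (0.91) and Lars2 (0.84), and Malat1 with Kcnq1ot1 (0.86), while Gm26917 and Kcnq1ot1 had -0.89.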

How the data were processed

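UMI counts per gene and barcode were deposited as 1 filtered matrix for each of 3 libraries (WT, LApc, LApcL) from small intestinal organoids. The authors made them with Cell Ranger on mm10 (GRCm38); per the labels this was version 2.1.1, per the file headers 6.0.1, and which applies was not resolved. No barcode filter and no doublet removal was applied here.

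Counts were summed over barcodes within each library, apart for barcodes found in 1 library only (500 to under 2000, 2000 to under 10000, at least 10000 UMIs) and in all 3, and scaled to CPM. Barcodes found in 2 libraries were left out. Intervals of a level are exact Poisson, those of a log2 ratio exact conditional binomial, at the 95% level. A gene at 0 in a group was set at a floor of 3 counts over that group. A gene entered a comparison (the genes called tested) where either group reached 10 CPM, and was called past 2-fold. With 1 library per group no test was possible. For the lists, the 2 highest and 2 lowest genes of each comparison could be named, and the 3 genes most like each member. The ratio step was tested on simulated data. The members and lists were chosen with earlier results of these data known. Alternatives changed the denominator, centring, barcode filters, bins, thresholds, pseudocount and gene filter. Python 3.11.15, numpy 2.4.6, scipy 1.17.1, pandas 2.3.3, matplotlib 3.10.9 and blastn 2.17.0 were used, with GENCODE gene models on GRCm38 for loci and sequences. Values of some list genes are not reported here.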

Additional observations from a re-analysis of the deposited data

Results flagged for a closer look

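The contrast of shallow against deep barcodes went one way in WT and the other way in LApc and LApcL for Malat1 and Kcnq1ot1. The log2 ratio of Malat1 was 0.46 in WT, -0.55 in LApc and -0.30 in LApcL, a gap of 1.0038 between the highest and the lowest library. Kcnq1ot1 had 0.70, -1.35 and -2.62, a gap of 3.32. With the 223 shallow WT barcodes that carried at least 0.1% endothelial marker UMIs left out, WT had -0.22 for Malat1 and -1.38 for Kcnq1ot1, on the side of the other libraries. For Neat1, the contrast of high against low mitochondrial share in middle barcodes gave -0.42 in WT, 0.08 in LApc and 0.13 in LApcL, a gap of 0.55, and all 3 were positive when centred on the median gene (0.27, 0.77 and 0.79). With 1 library per genotype none of these differences was tested.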

How the results depend on the processing

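Of 166 alternative counts of members past 2-fold, 145 stayed within 1.5 times the reported count and 21 did not. For shallow against deep barcodes in WT the count of 3 became 5 with nuclear-encoded UMIs as denominator, 5 when centred on the median gene, 6 without barcodes over 20% mitochondrial share (3 when those with endothelial markers were left out too) and 5 for under 1000 against at least 20000 UMIs. For mitochondrial share in WT the count of 0 became 2 at 1.5-fold, 5 in shallow and 4 in deep barcodes. In LApc the count of 3 became 1 with nuclear-encoded UMIs, 1 when centred and 1 with a pseudocount of 10 CPM. In LApcL the count of 0 became 2 with barcodes weighted equally, 1 with nuclear-encoded UMIs, 1 when centred, 3 at 1.5-fold, 5 in shallow and 4 in deep barcodes. For LApc against WT the count of 4 became 2 when centred and 2 in shallow barcodes, and for LApcL against LApc the count of 0 became 1 without the top and bottom 1% of barcodes by genes, 1 without the top 1% by UMIs and 4 at 1.5-fold. Of 798 alternative log2 ratios of single members, 388 stayed within the 95% counting interval of the reported value, 407 did not, and 3 values past 2-fold changed sign: in deep barcodes, with mitochondrial share in LApc, Gm26917 (2.80) and Rmrp (1.88), and in shallow barcodes, for LApc against WT, Kcnq1ot1 (-0.84, or 1.24 without barcodes with endothelial markers). The cause of these changes was not tested. No paired analysis was possible because each group had 1 library. Leaving out barcodes with endothelial markers, alone or with a limit on mitochondrial share or depth, was chosen after seeing the data. Rmrp and Kcnq1ot1 rest on under 100 UMIs in several groups, which limits their precision.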

Other observations

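The genes most like Gm26917 over the barcode groups were replication-dependent histone genes, whose mRNAs end in a stem-loop and carry no poly(A) tail. All 67 core and linker histone genes named Hist1 to Hist4 were therefore counted, a set chosen after these values were seen. Their summed level was 1363 to 4540 CPM in barcodes of 1 library only and, among barcodes that all 3 libraries share, 252 CPM (WT), 253 CPM (LApc) and 267 CPM (LApcL). It was 3645, 1962 and 2992 CPM in shallow and 2096, 1363 and 1585 CPM in deep barcodes of WT, LApc and LApcL. In middle barcodes it was 3423, 2289.5 and 2965 CPM at a mitochondrial share of 20% and over and 7778, 4842 and 4946 CPM under 20%. Since the set was taken up for this likeness, these levels are a description and support nothing. Hist1h2bj, an H2B gene, stood at 48.0, 56.7 and 10.5 CPM in the shallow, middle and deep bins of WT and at 0.855 CPM in its shared barcodes.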
